A study of Mus musculus with 7 samples.

Results

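The remaining interior of the Epha4 domain was taken as all pairs of 10 kb bins with both bins between 75900 and 77510 kb on mouse chromosome 1 (mm9). It held 161 bins and 13041 of the 500500 bin pairs of each map, and the rule for its members uses position and no contact value. Contacts were measured by capture Hi-C, in which cut and religated DNA fragments of a 10 Mb region around Epha4 are enriched before sequencing, so that each read pair records 1 contact. There were 7 libraries and 1 library per condition, so no test between conditions was possible and every difference below is between libraries. Errors are counting standard errors from read pairs and leave out the spread between embryos or cultures. They cover counting error only, since PCR copies are not independent molecules.

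Of the 7 libraries, 6 came from limb buds at E11.5 (forelimb and hindlimb tissue, titled Distal), each pooled from 10 embryos. They were WT, the CRISPR/Cas9 inversions Inv1, Inv2, Inv3 and Inv4, and Inv1DelCTCF, whose title names a CTCF deletion on the Inv1 chromosome. The last library was Inv1 ESC, 1 mutant line of embryonic stem cells, the cultured pluripotent cells. All 6 mutants thus carried an inversion that ended near 75900 kb, and the bins studied here were not inverted. The labels give the mutants' genotype as mutant only, and the sources used here do not give whether the mutant embryos carried 1 or 2 inverted chromosomes. The maps of Inv2, Inv3 and Inv4 carry the tag hom in their names, which the labels do not explain. The labels' cell type field reads G4 ESC for every library, so stem cells were told from limb buds by title and series design. No WT stem cell map was analysed here, and against WT the stem cell library therefore differed in tissue as well as genotype. Set beside Inv1, it differed in tissue and came from a cultured line instead of pooled embryos.

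Chromosomes fold into domains whose sequences meet each other more than their surroundings. Borders between domains are often bound by CTCF, a DNA-binding protein at which the cohesin ring, thought to extrude chromatin loops, is held up, and a sequence at a domain's edge may meet the whole domain as a stripe on the map. Epha4 encodes an ephrin receptor tyrosine kinase that helps pattern the limb bud and guide axons, and its limb enhancers are known to lie far from its promoter at the other side of its domain. The inversions moved the border on that side and the enhancer part beside it away from the interior.

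The stretch around Epha4 was gene-poor. In the RefSeq gene order of GRCm38.p6, Epha4 had Slc4a3, an anion exchanger gene, as its preceding protein-coding neighbour and Pax3, a transcription factor gene of muscle and neural crest progenitors, as the next. Between them stood 9 other annotated loci before Epha4 and 6 after it, which were predicted genes, a pseudogene and microRNA genes. The maps give no gene positions in mm9, so no bin was assigned to a gene. The end of the interval at 77510 kb is called the Epha4 end after the gene known to lie there, and the other end the breakpoint end. The Epha4 promoter is shown because it is the gene end that this domain serves, and because its sequence holds a recognition site of DpnII, the enzyme that cut the chromatin. These are the 250 bases before the gene's start, from RefSeq (GRCm38.p6, chromosome 1, minus strand), with the DpnII site GATC in capitals.
Epha4 promoter: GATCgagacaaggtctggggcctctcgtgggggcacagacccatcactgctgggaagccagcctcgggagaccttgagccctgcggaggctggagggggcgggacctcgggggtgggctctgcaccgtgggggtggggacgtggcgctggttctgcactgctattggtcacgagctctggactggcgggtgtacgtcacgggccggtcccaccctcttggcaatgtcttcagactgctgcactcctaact
The site GATC, which reads alike on both strands, occurred at 1 position in this stretch, and 41.9% of the 32851 promoter stretches of the same length held it.

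The interior was deeply covered. It held 842201 read pairs in WT. Inv1 had 618122 there, Inv1DelCTCF 646928 and Inv1 ESC 567536, with 525285 to 684625 in the Inv2, Inv3 and Inv4 libraries. A median of 30 read pairs stood behind a bin pair in WT. The maps of Inv2, Inv3 and Inv4 were deposited with a share of the WT map already subtracted, 49.1% to 49.4% of each library's signal, so their values were noisier, and 1.41% to 1.60% of their interior bin pairs were negative. Bin factors along the interior correlated with WT at 0.980 to 0.988 in all maps but Inv1DelCTCF, where the best match was offset by 4.5 kb (0.729, against 0.564 with no offset). Values of Inv1DelCTCF at the scale of single bins are therefore shifted by a part of a bin.

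In WT limb buds the contact of the interior exceeded its expectation most between its ends. Contact was expressed as observed over expected, the balanced signal of bin pairs over the mean of the same map at the same distance, taken over pairs outside 74790 to 75900 kb. It was 0.867 ± 0.0024 at 50 to 200 kb, 1.01 ± 0.0035 at 200 to 400 kb, 1.33 ± 0.0044 at 400 to 800 kb and 2.15 ± 0.0084 at 800 to 1600 kb, so the interior exceeded the average most at its longest distances. At 800 to 1600 kb the 4 other windows of 1600 kb were at 0.479 to 1.71 in the same map. WT contact fell little with distance across the interior, with a slope of -0.37 on log scales from 400 to 1200 kb. It was higher again at 1500 kb, at 1.13 times its value at 800 kb.

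On the inverted limb chromosomes this pattern was nearly the same. At 800 to 1600 kb observed over expected was 2.18 ± 0.0097 for Inv1, 2.202 ± 0.019 for Inv2, 2.23 ± 0.019 for Inv3, 2.06 ± 0.018 for Inv4 and 2.15 ± 0.0096 for Inv1DelCTCF. These limb values lay from 0.962 to 1.04 times WT, while the nearest of the 4 other windows was at 1.66 to 1.76 in these maps. The interior was thus the window with the highest long-distance contact in each limb map, before and after its border had been moved away.

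**Figure D1:**
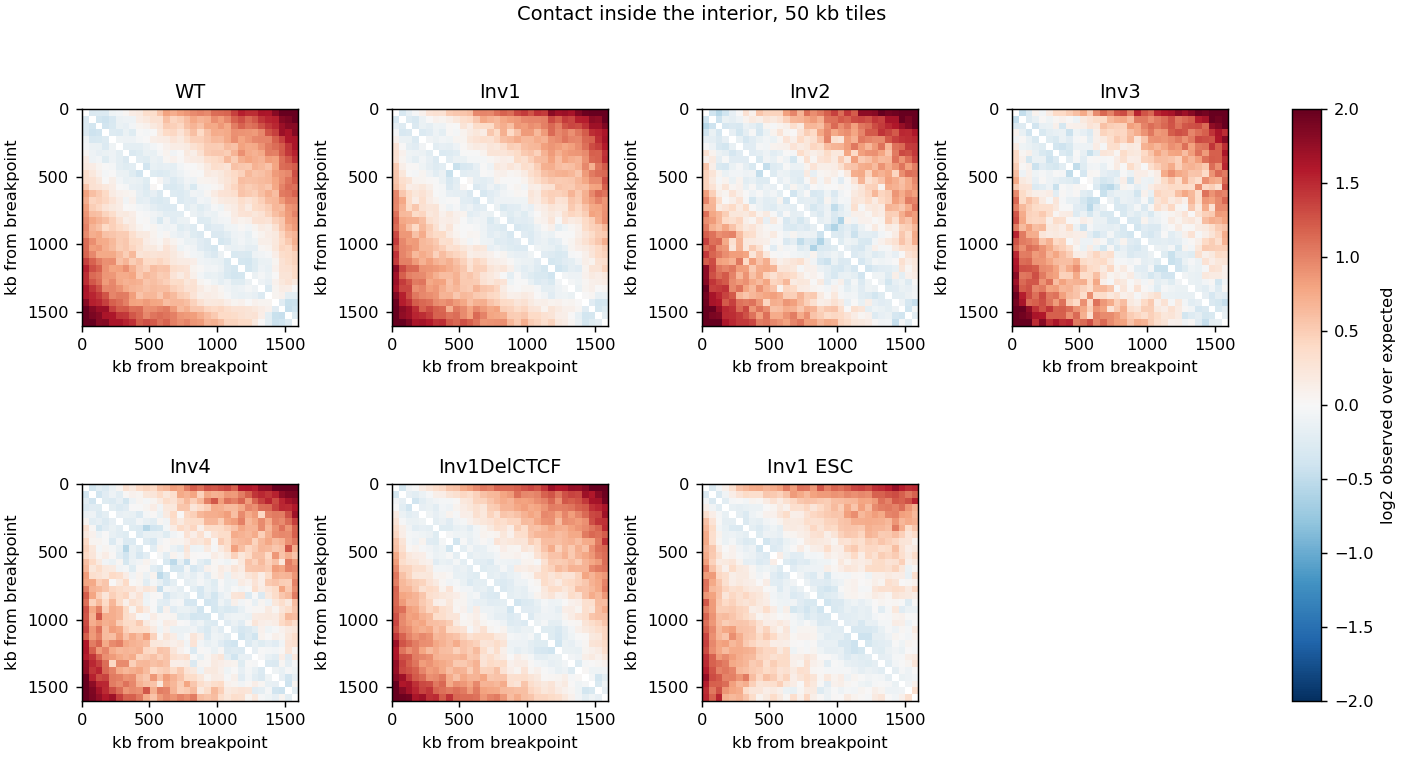
Contact inside the interior in the 7 libraries, as log2 observed over expected (colour) of 50 kb tiles whose positions are given in kb from the breakpoint on both axes. In the limb maps tiles far from the diagonal are mostly red, most of all in the corner where both ends meet (4.36 in WT). In Inv1 ESC this corner is paler (2.53), and some tiles of the Epha4 end at these distances are below 1. Values past either end of the colour scale take its end colour.

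In stem cells contact across the interior was lower at long distances and nearly the same at short ones. Observed over expected in Inv1 ESC was 0.894 ± 0.0028 at 50 to 200 kb and 1.02 ± 0.0041 at 200 to 400 kb, which was 1.03 and 1.01 times WT limb buds. It was 1.21 ± 0.0050 at 400 to 800 kb and 1.67 ± 0.0088 at 800 to 1600 kb, or 0.913 and 0.776 times WT. The slope from 400 to 1200 kb was -0.74 in Inv1 ESC and lay between -0.37 and -0.27 in the 5 limb mutants. At 1500 kb, again from 11 bin pairs per map, contact was 0.730 times its value at 800 kb in stem cells, and 1.22 to 1.61 times in the limb mutants.

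The next comparison was where the contacts of the interior went once the border had been moved. Balancing fixes the sum of every bin, so these are shares of a constant total. Of the WT interior's signal, 76.9% ± 0.095 stayed inside, 11.8% went to the left of the breakpoint and 11.2% ± 0.029 beyond the Epha4 end. The share inside was 79.2% ± 0.11 for Inv1, 78.7% ± 0.23 for Inv2, 78.1% ± 0.24 for Inv3, 75.6% ± 0.25 for Inv4, 78.9% ± 0.11 for Inv1DelCTCF and 76.6% ± 0.12 for Inv1 ESC. The share to the left was lower than in WT in all 6 mutants, at 8.24% to 9.90%. The share beyond the Epha4 end was above WT in all 6, by 0.207 to 1.14 percentage points in Inv1, Inv2, Inv3 and Inv1DelCTCF. It was highest in Inv4 and Inv1 ESC, at 14.5% ± 0.081 and 15.1% ± 0.039.

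In all limb mutants the difference from WT in the share inside was highest in the zone closest to the breakpoint. In Inv4 it was within counting error there and negative in the other zones. The interior was split into 8 zones of 200 kb by distance from it, the last of which is 210 kb long. In the zone nearest the breakpoint 70.8% ± 0.24 of WT signal stayed inside, and 75.5% ± 0.29 for Inv1, 74.84% ± 0.55 for Inv2, 74.788% ± 0.59 for Inv3, 71.8% ± 0.60 for Inv4 and 75.7% ± 0.25 for Inv1DelCTCF. The difference from WT was 4.61, 3.99, 3.94, 1.00 and 4.90 percentage points in that order, and beyond the 95% counting interval in all but Inv4. In the 7 other zones it was 1.68 to 2.23 percentage points for Inv1, 0.425 to 2.36 for Inv2, 0.370 to 1.31 for Inv3 and 1.20 to 2.06 for Inv1DelCTCF, and for Inv4 it was -2.59 to -1.08. Inv1 and Inv1DelCTCF were above WT beyond counting error in 8 of 8 zones, Inv2 in 5 and Inv3 in 2. For Inv2, Inv3 and Inv4 this error is understated. Inv4 was below WT in 7 of 8 zones, and in 6 beyond counting error. Its share beyond the Epha4 end was above WT in 8 of 8 zones, by 2.50 to 4.60 percentage points, with the largest difference beside the breakpoint.

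In stem cells the zones split by side when set against WT, but not against Inv1. Inv1 ESC kept more signal inside than WT in the zone nearest the breakpoint, 73.3% ± 0.28, and in the next 3 zones, and less in the 4 zones toward the Epha4 end. Against Inv1 the share inside was lower in 8 of 8 zones, and in 6 beyond counting error. These differences from Inv1 ran from -5.93 to -0.247 percentage points. The seventh zone, 1200 to 1400 kb from the breakpoint, was at 74.3% ± 0.25 in Inv1 ESC, 80.3% ± 0.26 in Inv1 and 78.6% ± 0.21 in WT. The signal of this zone that went beyond the Epha4 end was 19.3% in Inv1 ESC, 11.48% in Inv1 and 10.99% in WT. Against Inv1, this outward share was higher in stem cells in 8 of 8 zones, by 0.674 to 0.871 percentage points in the 3 zones nearest the breakpoint and 2.11 to 7.85 in the 5 others. Left of the breakpoint, the 3 zones from 800 to 1400 kb had 5.88% to 6.34% in Inv1 ESC, 7.8% to 8.3% in Inv1 and 9.84% to 10.4% in WT. Over the 8 zones the difference of this left share from Inv1 ran from -2.11 to 1.51 percentage points, with the highest value beside the breakpoint.

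**Figure D2:**
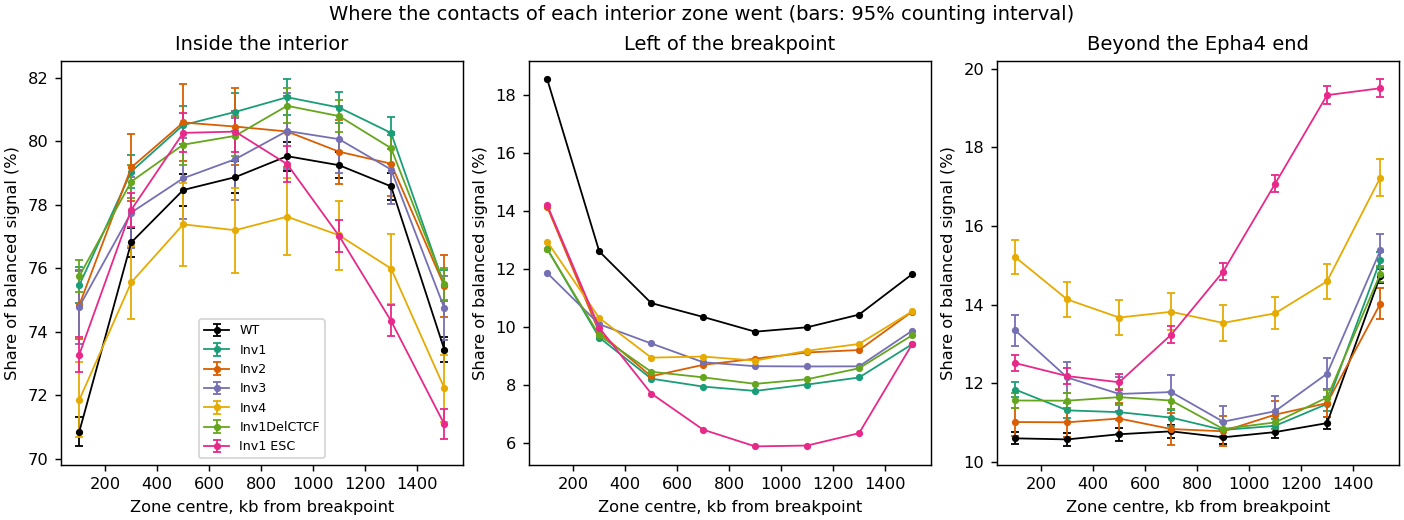
Share of balanced signal (percent, vertical axis) of 8 interior zones, by zone centre in kb from the breakpoint, that stayed inside the interior, went left of the breakpoint or went beyond the Epha4 end, with 1 line per library. Bars are 95% counting intervals, drawn in the first and last panels. The first zone is at 70.8% inside in WT and 71.8% to 75.7% in the mutants, and Inv1 ESC climbs to 19.3% and 19.5% beyond the Epha4 end in the last 2 zones.

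The drop in insulation at the left edge was deeper in the mutants than in WT, and the edge at the Epha4 end was shallower in stem cells. Insulation was the mean contact in a 200 kb square that spans a position, so a low value marks a border. At the left edge the lowest value stood 0.15 (log2) below the interior median in WT, and 0.92 for Inv1, 0.55 for Inv2, 0.66 for Inv3, 1.12 for Inv4, 0.93 for Inv1DelCTCF and 1.01 for Inv1 ESC. These lowest values lay at 75930 kb in WT, at 75860 kb in Inv1, Inv1DelCTCF and Inv1 ESC, at 75890 kb in Inv2, 75900 kb in Inv3 and 75880 kb in Inv4. Most mutant values thus lay left of the interval, among inverted bins. At 75900 kb itself the drop was 0.07 in WT and 0.50 to 0.92 in the mutants. WT thus had next to no border at 75900 kb, where it is inside its domain, and each mutant had a deeper drop. Whether the drop is a border or the break itself was not tested. For Inv2, Inv3 and Inv4 the left-edge values are less certain. Their squares take in bins inside the inversions, where positions of the subtracted WT map and of the library do not line up. Over all listed pairs of these 3 maps, 28.8% to 31.3% were negative. At the Epha4 end the drop was 0.93 in WT, 0.86 to 0.97 in the limb mutants and 0.65 in Inv1 ESC. The stem cell edge at the Epha4 end was therefore the shallowest of the 7.

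Within the interior no border was called in any library under the main setting. With the 200 kb square and a depth of at least 0.2 within 300 kb, 0 boundaries were called in each of the 7 maps, and the log2 insulation score of the interior spanned 0.32 in WT, 0.23 to 0.29 in the limb mutants and 0.37 in Inv1 ESC. With a depth of at least 0.1, the WT interior had 1 boundary at 76510 kb (depth 0.11), Inv1 1 at 77090 kb (0.13) and Inv1 ESC 1 at 77070 kb (0.10). Inv2 had 3, with the deepest at 76820 kb (0.14), Inv3 4 with the deepest at 76260 kb (0.14), Inv4 2 with the deeper at 76830 kb (0.11), and Inv1DelCTCF 0. None of these named positions was the same in any 2 maps, but those of Inv2 and Inv4 were 1 bin apart. Those of Inv1 (77090 kb) and Inv1 ESC (77070 kb) were also close. With a 100 kb square and a depth of at least 0.2, 1 to 6 boundaries were called per map, most in the noisier Inv3. With that square and a depth of at least 0.1, a dip at 76230 kb was called in WT, Inv1, Inv2, Inv4 and Inv1DelCTCF, with depths of 0.11 to 0.17. The nearest dips of Inv3 were at 76200 and 76260 kb, and that of Inv1 ESC at 76170 kb. Deeper dips lay at 77090 kb in WT (0.19) and Inv1 (0.26) and at 77070 kb in Inv1DelCTCF (0.27). They lay at 77050 kb in Inv3 (0.26) and Inv1 ESC (0.20) and at 77040 kb in Inv4 (0.29). Inv2 had shallower dips there, at 77030 kb (0.17) and 77110 kb (0.12).

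Tile by tile, the limb mutants stayed close to WT. The interior was cut into 496 tiles of 50 by 50 kb, at distances of 50 to 1550 kb, and compared as log2 ratios of observed over expected with a pseudocount of 0.1, which understates changes at low values. Of these, 0 tiles were past 1.5-fold higher and 0 past 1.5-fold lower in Inv1, where 0.289% of all 4495 tiles outside 74790 to 75900 kb were higher and 0.423% lower. In Inv2 the counts were 0 and 0 (2.27% and 6.41% of all tiles), in Inv3 0 and 2 (2.47% and 6.05%), in Inv4 0 and 2 (3.09% and 4.14%) and in Inv1DelCTCF 0 and 0 (0.267% and 0.556%). All shares of called tiles were thus below those of the map at large, whose counting error was not compared. Inv1DelCTCF against Inv1 had 0 higher and 0 lower (0.311% and 0.445% of all tiles), so removal of the element named in its title came with no 1.5-fold change inside the interior.

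The spread of the log2 ratios to WT was small as well. Their SD over the interior tiles was 0.104 in Inv1 and 0.113 in Inv1DelCTCF, where counting error alone gives 0.081 and 0.081. It was 0.172 to 0.178 in Inv2, Inv3 and Inv4, where counting error gives 0.133 to 0.137, which is understated because WT was subtracted from these maps. In the 4 other windows the SD was 0.107 to 0.196 in Inv1 and 0.191 to 0.464 in Inv2, Inv3 and Inv4. Counting error was not worked out for those windows, so its part in their spread was not tested. Across the tiles, which share libraries and are not replicates, log2 observed over expected correlated with WT at r = 0.979 for Inv1, 0.947 for Inv2, 0.947 for Inv3, 0.942 for Inv4 and 0.975 for Inv1DelCTCF. The other windows had r from 0.707 to 0.989 in these 5 maps.

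The tiles furthest from WT in limb buds differed between the mutants. Of the 15 tiles that were the 3 highest of each limb mutant, 9 involved the first 100 kb, namely all 3 of Inv1 and of Inv1DelCTCF, 2 of Inv3, 1 of Inv2 and 0 of Inv4. Of the 15 lowest, 0 involved the first 100 kb, 6 the last 100 kb and 9 neither. Of all 496 tiles, 61 involve the first 100 kb and 61 the last 100 kb. In Inv1 the highest tile joined 75900-75950 kb with 76800-76850 kb, at 2.49 in Inv1 and 1.93 in WT (log2 ratio 0.35 ± 0.098). The same tile was the highest in Inv3, at 2.87 (log2 ratio 0.55 ± 0.13). The tile of 75900-75950 kb with 77400-77450 kb was at 4.00 for WT, 4.96 for Inv1, 5.46 for Inv2 and 5.74 for Inv3, and was among the 3 highest in each of these comparisons. Tiles past 1.5-fold lower were those of 76450-76500 kb with 77400-77450 kb (log2 ratio -0.76 ± 0.21) and of 77150-77200 kb with 77400-77450 kb (-0.60 ± 0.13) in Inv3. In Inv4 they were 76450-76500 kb with 77350-77400 kb (-0.72 ± 0.23) and 76400-76450 kb with 77450-77500 kb (-0.62 ± 0.18). Of these low tiles, the 2 of Inv3 and 1 of the 2 of Inv4 involved the last 100 kb. The highest tile of Inv2 lay away from both ends, between 76050-76100 kb and 77200-77250 kb (log2 ratio 0.46 ± 0.16), and that of Inv4 joined 76000-76050 kb with 76850-76900 kb (0.46 ± 0.10).

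The sequence beside the breakpoint met the interior somewhat more often in the limb mutants. Of the 61 tiles that involve the first 100 kb, 54 were above WT for Inv1, 43 for Inv2, 46 for Inv3, 39 for Inv4 and 51 for Inv1DelCTCF. Their median log2 ratios were 0.13, 0.12, 0.11, 0.05 and 0.14, while the medians of all other tiles lay between -0.04 and 0.01. Of the 16 steps of 100 kb along the interior, the first 100 kb was above WT beyond counting error with 13 for Inv1, 7 for Inv2, 7 for Inv3, 2 for Inv4 and 11 for Inv1DelCTCF, and below it with 1 for Inv3 and 1 for Inv4. The step ratios ran from 0.896 to 1.24 over these 5 maps, and counting error is understated for Inv2, Inv3 and Inv4.

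The rows at the new join were higher in the mutants than in WT. A row level was the mean observed over expected of a 10 kb row with interior bins at least 300 kb away, a measure chosen after the maps had been seen. The row at 75900 kb was at 1.71 ± 0.031 for WT, and at 2.12 ± 0.040 for Inv1, 2.15 ± 0.070 for Inv2, 2.24 ± 0.074 for Inv3, 2.25 ± 0.072 for Inv4, 2.30 ± 0.039 for Inv1DelCTCF and 1.96 ± 0.040 for Inv1 ESC. All 6 mutants were above WT, and the stem cell row was the lowest of them. The highest row of the first 100 kb lay at 75920 kb in WT (2.09 ± 0.040), Inv1 (2.43 ± 0.049), Inv2 (2.38 ± 0.089) and Inv3 (2.69 ± 0.095). It lay at 75910 kb in Inv4 (2.28 ± 0.072), Inv1DelCTCF (2.59 ± 0.044) and Inv1 ESC (2.11 ± 0.038). Over the first 6 rows the difference from WT was largest at 75900 kb in Inv1 (0.407), Inv2 (0.437), Inv4 (0.536) and Inv1 ESC (0.246), at 75910 kb in Inv1DelCTCF (0.649) and at 75920 kb in Inv3 (0.595). By 75950 kb WT had a row level of 1.83 and the 6 mutants had 1.73 to 1.93, on both sides of WT.

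**Figure D3:**
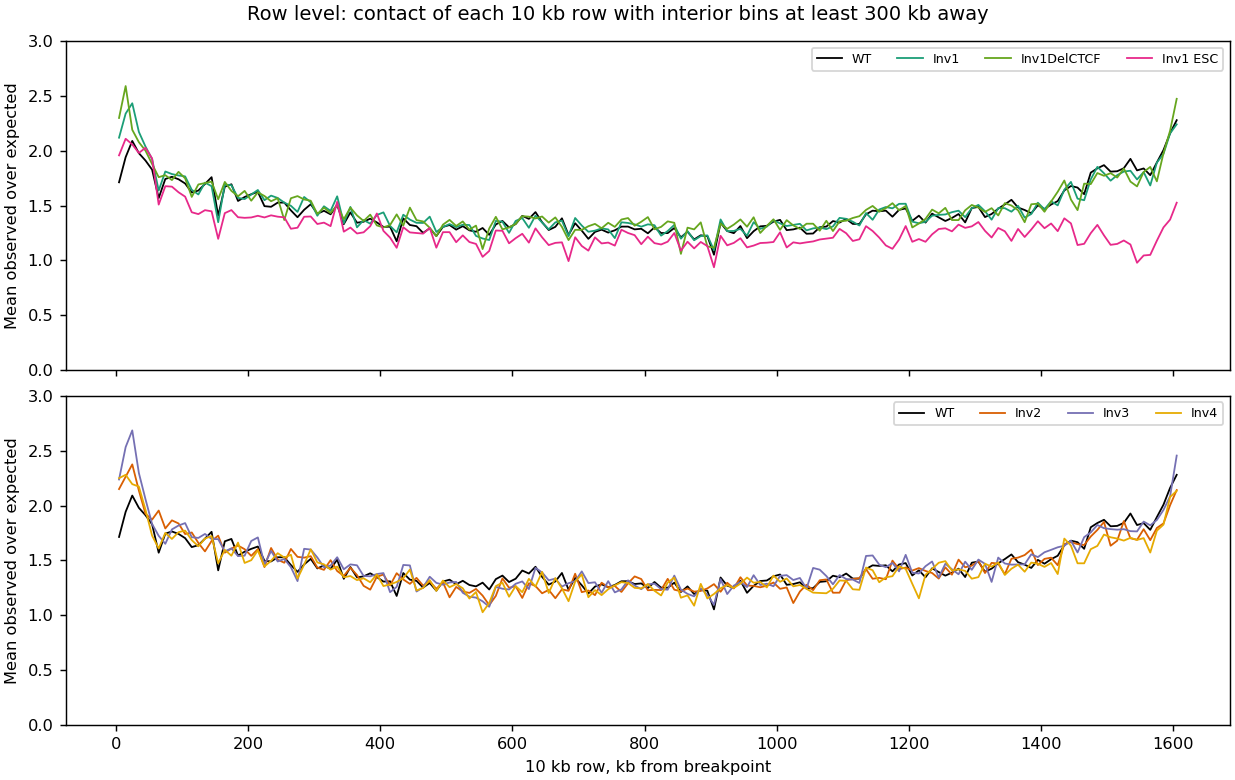
Row level (vertical axis, mean observed over expected with interior bins at least 300 kb away) of each 10 kb row by its distance from the breakpoint in kb, with 1 line per library and WT in both panels. The limb lines are highest at both ends, whose rows are averaged over longer distances than middle rows. The mutants exceed WT in the first rows (2.12 to 2.30 in the limb mutants against 1.71 at 75900 kb). Inv1 ESC stays low toward the Epha4 end (mean of the last 100 kb 1.19 against 1.94 in WT).

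Away from its ends the interior had no row this high in limb buds. The measure does not treat end and middle rows alike, since end rows are averaged over longer distances. In WT, observed over expected rose with distance, from 1.33 at 400 to 800 kb to 2.15 at 800 to 1600 kb. End rows are therefore best set against the same row of another map. Over the middle rows the mean level was 1.32 to 1.38 in the 6 limb maps, and the highest middle row, at 76110 kb in WT, Inv1, Inv3 and Inv1DelCTCF, was at 1.60 to 1.71 across the limb maps. In Inv1 ESC the middle mean was 1.23 and the highest middle row was at 1.54, at 76230 kb. At the Epha4 end the highest row was 77500 kb, the last bin of the interval, in all 7 maps. It was at 2.28 ± 0.033 in WT, 2.13 ± 0.072 to 2.47 ± 0.043 in the limb mutants and 1.53 ± 0.030 in Inv1 ESC, which was no higher than its middle rows reached.

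The breakpoint end and the Epha4 end still met in the limb mutants. Observed over expected between the first and the last 100 kb was 4.36 ± 0.081 for WT, 4.75 ± 0.096 for Inv1, 4.91 ± 0.18 for Inv2, 5.32 ± 0.19 for Inv3, 4.63 ± 0.17 for Inv4 and 4.77 ± 0.10 for Inv1DelCTCF. The ratios to WT were 1.09 ± 0.030, 1.13 ± 0.047, 1.22 ± 0.048, 1.06 ± 0.044 and 1.09 ± 0.031, so that of Inv4 had a 95% counting interval that included 1. All 5 were above WT with ends of 100 kb, with the error of the ratio understated in Inv2, Inv3 and Inv4. With ends of 200 kb the values were 3.60 in WT and 3.59 to 3.90 in the limb mutants, and Inv1DelCTCF was then below WT. In the 20 kb corner between 75910-75930 and 77490-77510 kb, chosen after the maps had been seen, contact was 7.78 ± 0.54 in WT (217 read pairs). It was 8.84 ± 0.66 for Inv1, 7.93 ± 1.2 for Inv2, 10.3 ± 1.2 for Inv3, 6.76 ± 1.0 for Inv4 and 10.4 ± 0.72 for Inv1DelCTCF, and the library order thus differed from that of the 100 kb ends.

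In stem cells this meeting of the ends was much weaker. It was 2.53 ± 0.072 in Inv1 ESC (1318 read pairs), 0.580 ± 0.020 times WT and 0.533 ± 0.019 times Inv1. In the 20 kb corner Inv1 ESC was at 3.28 ± 0.41, from 68 read pairs, or 0.371 ± 0.054 times Inv1. The stem cell library thus differed from Inv1 by more than any limb mutant differed from WT in this measure, as far as 1 library each can show. Tissue, culture and library cannot be told apart in this difference. From the breakpoint end, the first 100 kb contacted the nearer interior more often in stem cells than in WT, 1.24 against 0.897 at the third 100 kb step and 1.44 against 0.997 at the fourth. With the last step it was 2.51 against 4.28. Against Inv1, 6 of the 16 steps were higher in stem cells beyond counting error and 7 lower, with ratios from 1.27 at the fourth step to 0.535 at the last.

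The Epha4 end contacted the far interior less in stem cells than in WT. Observed over expected of the last 100 kb fell in WT from 4.36 with the step at the breakpoint to 2.29 with the fifth step and 0.783 within its own step. In Inv1 ESC it was 2.53, 1.15 and 1.05 at the same steps, and from the fourth to the sixteenth step it stayed between 1.01 and 1.34. Ratios to WT were 0.481 to 0.656 over the first 9 steps and 1.35 and 1.34 over the last 2. The Epha4 end of stem cells thus met its own surroundings more and the far interior less than in limb buds. In the limb mutants the ratios to WT of these steps were 0.790 to 1.22, with 2 to 3 of the 16 steps above WT beyond counting error and 3 to 9 below, most in Inv4. Counting error is understated here too for Inv2, Inv3 and Inv4.

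**Figure D4:**
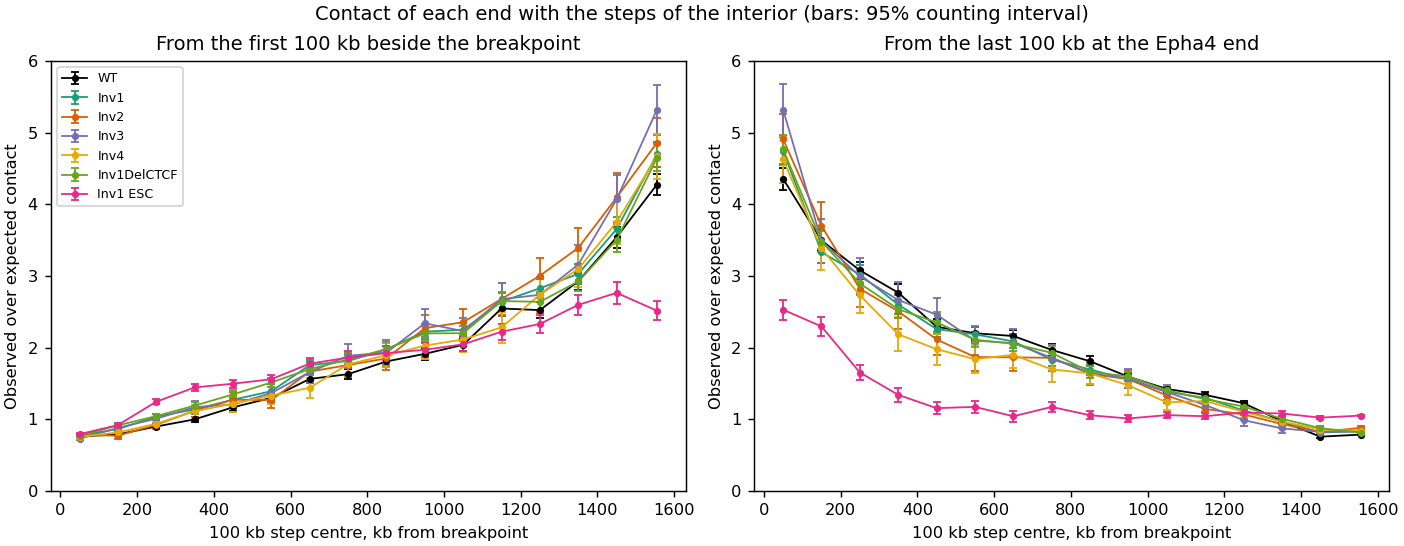
Observed over expected contact (vertical axis) of the first 100 kb (left panel) and the last 100 kb (right panel) of the interior with 100 kb steps, by step centre in kb from the breakpoint, with 1 line per library and bars of the 95% counting interval. The limb libraries run close together and reach 4.28 to 5.32 where the ends meet, and Inv1 ESC lies at 2.51 to 2.53 there and near 1 over most of the right panel.

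The tiles showed the same layout. Against WT, Inv1 ESC had 1 interior tile past 1.5-fold higher and 40 lower, where 7.30% of all tiles were higher and 5.27% lower. Of the 40 lower tiles, 35 involved the last 100 kb, which is 57.4% of the 61 tiles of that stretch, and the median log2 ratio of those 61 was -0.66. The higher tile joined 75900-75950 kb with 76150-76200 kb, at 1.49 in Inv1 ESC and 0.958 in WT (log2 ratio 0.59 ± 0.056). The lowest joined 76500-76550 kb with 77400-77450 kb, at 0.921 in Inv1 ESC and 2.10 in WT (log2 ratio -1.11 ± 0.11). Against Inv1 limb buds, 0 tiles were higher and 39 lower (7.63% and 5.18% of all tiles), with 32 of the 39 in the last 100 kb. The SD of the log2 ratio to WT was 0.283 with a counting error of 0.085, and r with WT was 0.831, against 0.573 to 0.877 in the 4 other windows. A departure from WT of this size was therefore found elsewhere in the stem cell map too. The share of higher tiles was below that of the whole map, and the share of lower tiles, 8.06%, was above it. In the 4 other windows 4.64% to 8.06% of tiles were lower, so a share this high was not particular to the interior.

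**Figure D5:**
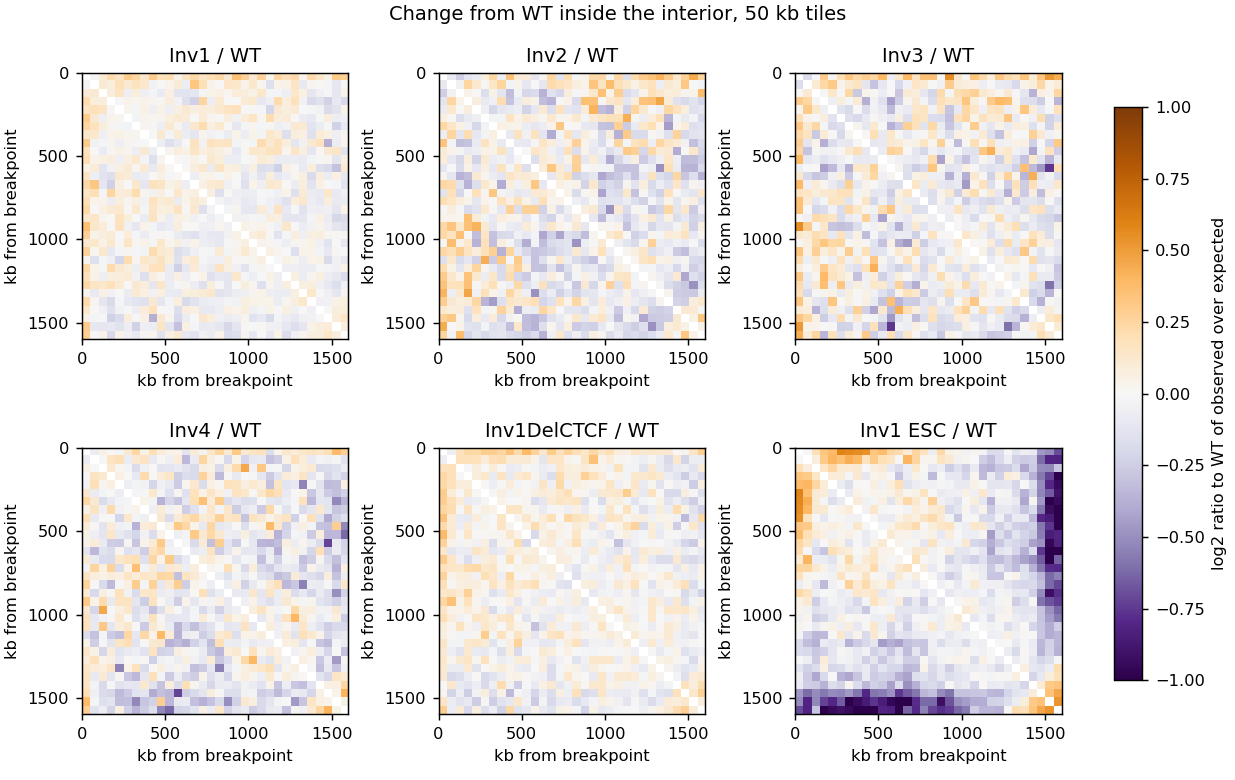
Log2 ratio to WT of observed over expected (colour) for 50 kb tiles of the interior in the 6 mutants, with tile positions in kb from the breakpoint on both axes. The limb mutants stay between -0.76 and 0.55, with orange along the first row of Inv1 and Inv3, and Inv1 ESC has a dark band in the last 100 kb (median -0.66) and an orange patch near the breakpoint. Ratios past either end of the colour scale take its end colour.

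These ratios compare the shape of contact within each balanced map. When read pairs of the interior were instead scaled to those of both flanks of the map, the median log2 ratio of the tiles was -0.48 in Inv1 ESC against WT and -0.42 against Inv1, with 177 and 147 tiles past 1.5-fold lower. On that scale the median was -0.04 in Inv1 and -0.03 in Inv1DelCTCF against WT. In Inv1 ESC 0 tiles were past 1.5-fold higher than in WT on the flank scale. The 3 tiles that were highest on the main scale were still above WT, at log2 ratios of 0.44, 0.39 and 0.36.

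Focal contacts were looked up at bin pairs picked in WT and in Inv1 ESC, and none were picked in the limb mutants. The 6 bin pairs of WT with the highest ratio of a 3 by 3 bin centre to its 11 by 11 bin surroundings were at 1.24 to 1.32, values that chose them, so lower values in other maps are given as a description. The highest joined 76220 with 76820 kb, at 1.32 ± 0.11 in WT, and it was at 1.16 ± 0.12 in Inv1. At these 6 sites the median was 1.09 in Inv1, 1.10 in Inv1DelCTCF and 0.840 to 0.869 in Inv2, Inv3 and Inv4, and 0 of the 6 were above 1.2 in any of these 5 maps. A share of this same WT map is subtracted from Inv2, Inv3 and Inv4, which lowers their values where WT was high by counting noise. Their lower medians therefore cannot be read as a loss of contact. The 6 chosen in Inv1 ESC were at 1.31 to 1.57 there, and the highest joined 76030 with 77440 kb, at 1.57 ± 0.11 for Inv1 ESC, 1.08 ± 0.070 for Inv1 and 0.974 ± 0.058 for WT. The pair of 76460 with 77390 kb was on both lists, at 1.24 ± 0.10 in WT, 1.34 ± 0.17 in Inv1 ESC and 0.883 ± 0.10 in Inv1. A bin pair of the corner just outside the interval, between 75920 and 77510 kb and chosen after the maps had been seen, was at 14.4 ± 1.8 in WT, 11.7 ± 1.8 to 19.2 ± 4.0 in the limb mutants and 4.99 ± 1.2 in Inv1 ESC.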

How the data were processed

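Each of the 7 maps lists 1 value per pair of 10 kb bins from 71 to 81 Mb of chromosome 1. In WT, Inv1, Inv1DelCTCF and Inv1 ESC the deposited values are, from their names, a Knight-Ruiz balanced signal, and in Inv2, Inv3 and Inv4 they are a score that can be negative. Per the submitters' processing notes, which give no roles, Bowtie2 2.2.6 and Juicer were used with build mm9. Gene tables of an enhancer region outside the interval were not used here.

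Balanced values were read pairs times 1 factor per bin. Recovering these factors gave whole read pairs (within 0.1) for 100% of interior values under 20 read pairs in the 4 maps without subtraction, whose totals were 3903613 to 5155259. Negative values of the other 3 maps lay on 0.423, 0.369 and 0.334 times the WT map. Outside the inversions those libraries held 2876224 to 3658368 read pairs. Whether the subtracted share was that of a WT chromosome is not stated in the labels.

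Pairs not listed were set to 0, and a bin was left out where it had less than 25% of the median count of listed pairs. Expected contact, tiles, zones, insulation and focal contacts are defined where they are first used. A tile was called past 1.5-fold, as a description with no test. Scripts in Python 3.11.15 with numpy 2.4.6 were tested on simulated maps. Alternatives were other edges, expectations, pseudocounts, scales, tile sizes, squares, end sizes and ring sizes. The tiles named were the 3 highest and 3 lowest of a comparison or a selection of these, and the interval and all measures were chosen with earlier results of these data known.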

Additional observations from a re-analysis of the deposited data

How the results depend on the processing

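No paired analysis was possible because each condition had 1 library. Directions were checked only for the 3 highest and 3 lowest tiles of each comparison with WT and of Inv1 ESC with Inv1. Most of these were not past 1.5-fold, and other called tiles were not checked. None of the checked tiles reversed, though a change of pseudocount cannot reverse a direction. Of their 150 values under alternatives, 131 stayed within the 95% counting interval of the main value. Interior shares were 75.0%, 76.7%, 76.1%, 75.3%, 72.8%, 76.3% and 73.9% in WT, Inv1, Inv2, Inv3, Inv4, Inv1DelCTCF and Inv1 ESC with the left edge at 76000 kb, so that the order of WT and Inv1 ESC widened. They were 78.52%, 80.4% and 80.5% in WT, Inv1 and Inv1DelCTCF on read pairs. Inv1 ESC was at 76.55% on that scale, further below WT than in the main setting. At 800 to 1600 kb observed over expected was, in the order above, 2.35, 2.47, 2.47, 2.53, 2.32, 2.44 and 1.88 with the mean of all bin pairs as expectation, and 2.03, 2.01, 2.01, 2.05, 1.89, 1.997 and 1.51 with the left edge at 76000 kb. Adding back the subtracted WT signal gave 2.19 in Inv3 and 2.10 in Inv4. Ends of 200 kb gave 3.60, 3.63, 3.86, 3.90, 3.61 and 3.59 in WT, Inv1, Inv2, Inv3, Inv4 and Inv1DelCTCF. The other expectation gave 4.76, 5.42, 5.50, 6.13, 5.35, 5.45 and 2.98 end to end, the 20 kb corner 7.78, 8.84, 7.93, 10.3, 6.76, 10.4 and 3.28, and adding back the WT signal 4.88 in Inv3. The 2 lower tiles of Inv3 became 1 with a pseudocount of 0.5 and 0 with a threshold of 2-fold, and the 2 of Inv4 became 0 and 0. In Inv1 ESC against WT the 1 higher tile became 3 with a pseudocount of 0.02, 0 with 0.5, 5 with ratios centred on the median tile, 0 with 2-fold and 0 with read pairs scaled to the flanks. The 40 lower tiles became 8 with 2-fold and 177 with that scaling. The 39 lower tiles against Inv1 became 22 with a pseudocount of 0.5, 4 with 2-fold and 147 with that scaling. Interior boundaries were 1, 1, 3, 6, 3, 1 and 3 with a 100 kb square, and 1, 1, 3, 4, 2 and 1 with a depth of 0.1 in WT, Inv1, Inv2, Inv3, Inv4 and Inv1 ESC. Few read pairs stood behind the 20 kb corner (68 in Inv1 ESC) and the single bin pair beyond it (18 in Inv1 ESC), and the subtracted maps were noisier throughout. Causes of these shifts were not tested.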

Other observations

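Local contact at the Epha4 end was the highest of the stem cell differences from Inv1. The tile of 77400-77450 kb with 77450-77500 kb was at 1.25 in Inv1 ESC and 0.883 in Inv1 limb buds, a log2 ratio of 0.46 ± 0.028. With read pairs scaled to the flanks the ratio was 0.20. The part of tissue and culture in it cannot be told apart with these libraries. Across distances the interior of stem cells thus differed in both directions at this end.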
